A study of Homo sapiens with 12 samples.

Results

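The baseline transcriptome of Ramos cells carrying a scrambled control vector was described over all 6 scramble libraries of a series of 12 libraries. The libraries were taken by their label. Ramos is a human B cell line from a Burkitt lymphoma, and the cells had been transduced with pTRIPZ, a doxycycline-inducible lentiviral vector, holding a scrambled sequence. The cells of all 6 libraries were selected with 0.4 µg/ml puromycin, given 0.5 µg/ml doxycycline for 2 days and sorted for the red fluorescence that the vector carries, so control cells without vector, drug or sort were not analysed here. Scramble 1, 2 and 3 belong to library batch 1 and scramble 4, 5 and 6 to batch 2. The labels give XENO 1 for scramble 1, 4 and 5 and XENO 2 for scramble 2 and 6, and scramble 3 has no such number. What XENO marks is not given, nor whether libraries of the same number come from separate cultures. In the deposited table the columns of scramble 4 and 5 are named after that of scramble 1, and the column of scramble 6 after that of scramble 2. An n of 6 therefore counts libraries, not independent cultures, and the spread and the p-values below cover these libraries only.

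A germinal centre B cell makes antibody as a surface receptor, with a heavy and a light immunoglobulin chain held by the signalling pair CD79A and CD79B. In Burkitt lymphoma a translocation joins the MYC gene to an immunoglobulin locus, and MYC is a transcription factor that drives genes of ribosome production, metabolism and cell division. Ramos is known to carry IgM with a lambda light chain.

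Values were read counts relative to library size (CPM), scaled between libraries by trimmed mean of M values (TMM) factors, for 12725 genes. CPM counts more reads for longer transcripts, so ranks by CPM describe shares of reads, and levels of different genes are set side by side per kilobase. The libraries held 15404730 to 37876636 reads, so that 3 reads corresponded to 0.083 to 0.181 CPM, a floor that covers counting error only. Reads were seen in all 6 libraries for 12656 genes, and 1 gene had none in any of them. Transcripts of the mitochondrial genome took 7.45% of the reads of scramble 3 and 1.54 to 2.88% of the others. Scramble 3 had the lowest correlation with another library, 0.867 with scramble 5 on the log2 scale, against 0.991 between scramble 2 and scramble 5. In a check for a library deposited more than once, the chi-square per degree of freedom was 37.8 to 498 over the 15 pairs, and each library was counted once. In bulk RNA, fewer cells with a transcript and less of it per cell cannot be told apart.

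The marker genes were all measured well above the floor. EEF1A1 (ENSG00000156508, chromosome 6, 73515750 to 73523797, minus strand, GRCh38), the elongation factor that brings aminoacyl-tRNA to the ribosome, had the highest mean of all genes. Its lowest, median and highest values were 6580, 9230 and 12765 CPM, a mean of 9314 ± 2371 (SD, n = 6), and its rank within a library was never below 3. IGHM (ENSG00000211899, chromosome 14, 105851705 to 105856218, minus strand), the constant region of the IgM heavy chain, came second. It measured 5602, 6847 and 7374 CPM (lowest, median and highest), with a mean of 6690 ± 687 (SD, n = 6). The ranges of EEF1A1 and IGHM overlapped, so their order held for the means but not in every library.

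CD79A (ENSG00000105369, chromosome 19, 41877120 to 41881372, plus strand), a signalling chain of the B cell receptor, ranked 219 with 521, 588 and 632 CPM (lowest, median and highest). Its mean of 588 ± 39.4 (SD, n = 6) made it one of the steadier B cell genes, with an SD of 0.10 on the log2(value + 1) scale that is used below for spread. MYC (ENSG00000136997, chromosome 8, 127735434 to 127741434, plus strand) ranked 213 at 390, 650 and 718 CPM (lowest, median and highest), with a mean of 596 ± 129 (SD, n = 6). Scramble 3 and scramble 6, at 390 and 484 CPM, were the lowest for MYC, and the other libraries lay between 646 and 718. Per kilobase MYC and CD79A were close, at 436 ± 94.7 and 467 ± 31.3 CPM (SD, n = 6). The length behind that value for MYC was 1365 bases. Over the union of annotated exons the levels were 199 CPM per kilobase for MYC and 391 for CD79A, so how close the genes stand depends on the length used.

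The reads were concentrated in few genes. The 10 genes with the highest means took 3.47, 4.21 and 7.31% of the values (lowest, median and highest library), the top 100 took 15.0, 17.1 and 19.8%, and the top 1000 took 47.4, 49.8 and 52.5%. The highest share of the top 10 was that of scramble 3, where mitochondrial transcripts were high. The median gene had a mean of 32.8 CPM, 87 genes reached 1000 CPM and 3 reached 5000. Of the genes of each library's own top 100, 54 were shared by all 6 libraries, and of the top 1000, 593. Protein-coding genes took 94.0 to 96.7% of the values.

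Genes of translation filled much of the top. Of the 100 highest genes, 37 encoded proteins of the cytosolic ribosome, 6 were translation factors, 10 were encoded by the mitochondrial genome and 6 were immunoglobulin genes, and 4 were enzymes of glycolysis and 5 chaperones. All 79 measured ribosomal protein genes together took 6.70, 7.69 and 8.64% of the values (lowest, median and highest library). Their median mean was 933 CPM per kilobase, against 10.4 over all genes, and 77 of the 79 ranked among the first 1000 by CPM. Of the 100 highest genes per kilobase, 50 were ribosomal protein genes, 14 mitochondrial, 6 immunoglobulin genes and 5 translation factors. RPLP0, a protein of the ribosomal stalk, measured 2912 ± 396 CPM (SD, n = 6), RPS6, a target of S6 kinase in the small subunit, 2486 ± 320, and RPS18, also of the small subunit, 1973 ± 145.

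Of 24 measured translation factors, 22 ranked among the first 1000. EEF2, which moves the ribosome along the message, measured 3057, 4052 and 5505 CPM (lowest, median and highest). TPT1, a growth-related protein named here with the translation factors, measured 2470 ± 290 CPM (SD, n = 6). PABPC1, the cytoplasmic poly(A)-binding protein, measured 1562, 2344 and 3264 CPM (lowest, median and highest). The factors were less even than the ribosomal proteins, with a median SD of log2 of 0.38 against 0.21.

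Many messages of the translation machinery begin with a cytosine followed by a run of pyrimidines, the terminal oligopyrimidine (TOP) start through which mTOR signalling is known to control their translation. The starts of 7 of the highest genes are shown since they are the class that leads this transcriptome. Each line gives 20 bases before the annotated start and the first 10 of the transcript, 5′ to 3′ on the gene's strand, with the cytosine and pyrimidine run that begins at the start in capitals (RefSeq, GRCh38.p14).
EEF1A1: cagtagtcgccgtgaacgttCTTTTTCgca
EEF2: tgagtgttgacgtcagcgttCTCTTCCgcc
RPLP0: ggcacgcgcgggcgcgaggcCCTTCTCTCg
RPS6: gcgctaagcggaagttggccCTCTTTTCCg
TPT1: tggggagcggctgagtcggcCTTTTCCgcc
RPL13A: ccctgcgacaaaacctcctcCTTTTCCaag
RPS18: gatatcgcgtcacttccgctCTCTCTTCCa
They lie at chr6:73521023-73521052 (EEF1A1, minus), chr19:3985454-3985483 (EEF2, minus), chr12:120201102-120201131 (RPLP0, minus), chr9:19380227-19380256 (RPS6, minus), chr13:45341174-45341203 (TPT1, minus), chr19:49487588-49487617 (RPL13A, plus) and chr6:33272055-33272084 (RPS18, plus).

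A start of this kind, C followed by at least 4 letters that are each C or T exactly at the annotated start and on the gene's strand, was present in 47 of 63 ribosomal protein genes with a start in the table (74.6%). It was present in 9 of 18 translation factors (50%), in 34 of 71 of the 100 highest genes (47.9%) and in 7.69% of the 9412 measured genes with a start. The 100 highest genes hold many members of both families. Among the 1000 highest genes outside both, it was present in 80 of 740 (10.8%). Over all 27305 genes of the table the share was 5.14%. Among ribosomal protein genes, those with and without it had median means of 927 and 904 CPM per kilobase, so the higher level of the family was not confined to genes with these letters. These windows match letters only, and the annotated start may differ from the one used in Ramos.

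Set per kilobase of transcript, immunoglobulin genes came first. IGLC2, a lambda constant region (ENSG00000211677, chromosome 22, 22900976 to 22901437, plus strand), had 8439 ± 1822 CPM per kilobase (SD, n = 6). IGLV2-14, a lambda variable segment (ENSG00000211666, chromosome 22, 22758700 to 22759218, plus strand), followed with 6265 ± 639. IGHM ranked 5 with 3968 ± 407, behind the mitochondrial genes MT-CO2 and MT-CO3, subunits of cytochrome c oxidase. Without scramble 3 the means fell from 3288 to 2281 CPM for MT-CO2 and from 3172 to 2682 for MT-CO3. The mean of IGHM went from 6690 to 6553 CPM, so this order depends on scramble 3. On this scale IGLC3 ranked 7, IGLV2-23 ranked 10 and IGHV4-34 ranked 11, whereas EEF1A1 had rank 18 at 2097 ± 534. The length behind that value for EEF1A1 was 4441 bases. Over the union of annotated exons it had 1566 CPM per kilobase, so its place on this scale rests on the length used. Which transcript the cells use was not tested. The ranges of neighbours in this order overlapped for most pairs, so single ranks should be read with the spread in the plot of levels per kilobase.

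**Figure D1:**
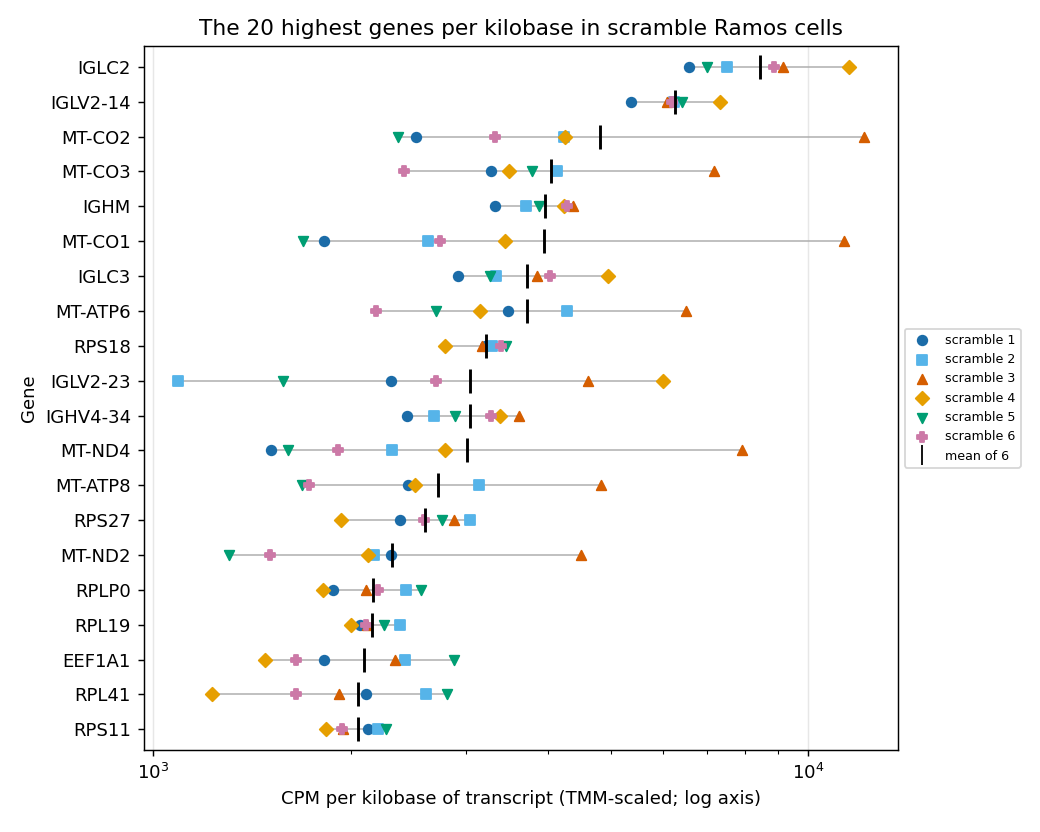
CPM per kilobase of transcript (log axis) of the 20 genes with the highest mean on that scale, with 1 symbol per scramble library and a black bar for the mean of the 6. IGLC2 leads at a mean of 8439, the mitochondrial genes reach far to the right in scramble 3, and ribosomal proteins such as RPS18 are tightly grouped.

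The immunoglobulin genes showed 1 heavy chain and 1 light chain type. IGHM made up 99.1 to 99.8% of the heavy constant values in the 6 libraries. IGHD, the constant region of IgD, measured 5.45, 24 and 52.9 CPM (lowest, median and highest), and the IgG constant regions IGHG3 and IGHG1 measured 8.68 ± 8.29 and 2.36 ± 2.32 CPM (SD, n = 6). Both IgG genes were highest in scramble 4, and without it their means were 5.72 and 1.46 CPM. IGHV4-34 (ENSG00000211956, chromosome 14, 106373663 to 106374145, minus strand), a heavy variable segment, made up 99.2 to 99.5% of the heavy variable values at 977, 1232 and 1445 CPM (lowest, median and highest). The other 4 measured heavy variable segments, IGHV1-69, IGHV4-59, IGHV7-81 and IGHV4-39, had means of 1.28 to 2.68 CPM. For every 100 CPM of IGHM there were 17.1 to 19.6 CPM of IGHV4-34, and this ratio was steadier over the libraries than either level.

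On the light chain side, IGLC2 measured 3039, 3784 and 5323 CPM and IGLC3 1346, 1660 and 2285 CPM (lowest, median and highest). Both were lowest in scramble 1 and highest in scramble 4. IGLV2-14 measured 2152, 2494 and 2950 CPM (lowest, median and highest), with an SD of log2 of 0.15, and IGLV2-23 measured 547, 1255 and 3015 CPM, with an SD of log2 of 0.92. IGLV2-23 was highest in scramble 4 and lowest in scramble 2, and the share of IGLV2-14 among lambda variable values ran from 48.8% in scramble 4 to 80.1% in scramble 2. Together these segments took 97.6 to 98.6% of the lambda variable values, and kappa segments took 0.757 to 1.35% of all light variable values.

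How reads were split between near-identical segments is uncertain. The annotated transcripts of IGLV2-14 and IGLV2-23 were identical at 95.5% of 381 aligned bases, with a longest shared run of 99 bases. IGLC2 and IGLC3 were identical at 99.1% of 462 bases, with a shared run of 173. The sum of each pair is therefore better determined than its members. IGKC, the kappa constant region, was not analysed here. JCHAIN, the joining chain of polymeric IgM, measured 1001, 2230 and 3107 CPM (lowest, median and highest), lowest in scramble 3. VPREB3, named here with the light chain genes, measured 24.2 ± 14.4 CPM (SD, n = 6).

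**Figure D2:**
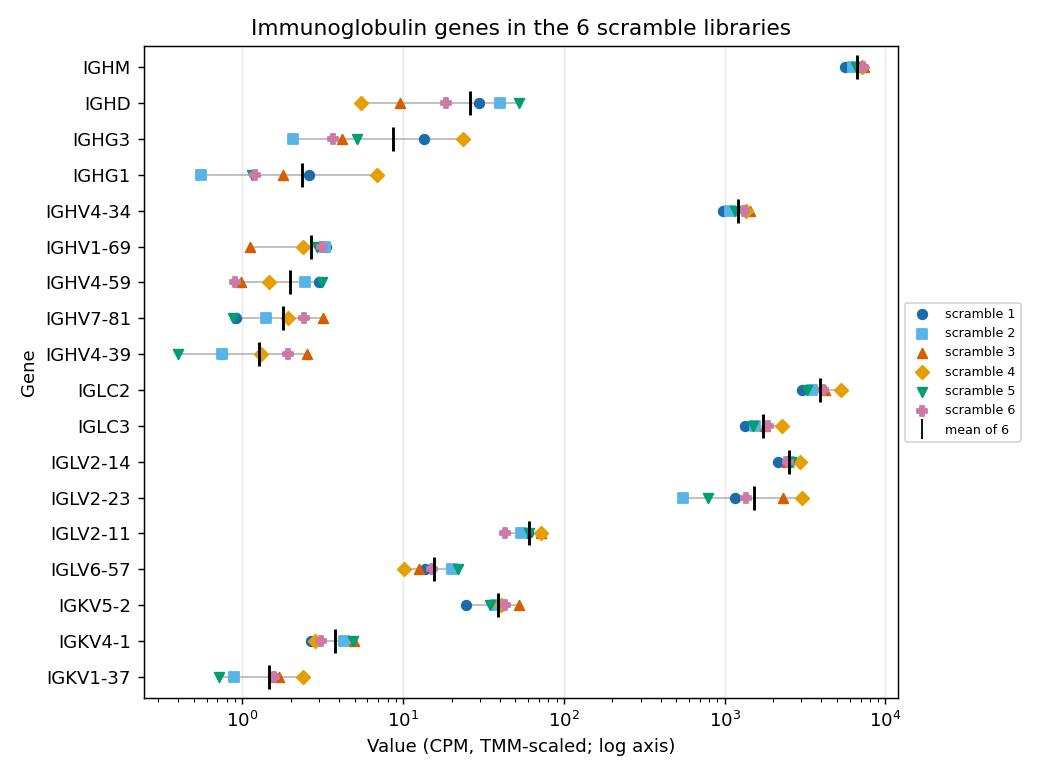
CPM (log axis) of the measured immunoglobulin constant and variable genes, with 1 symbol per scramble library and a black bar for the mean of the 6. IGHM, IGHV4-34, IGLC2, IGLC3 and IGLV2-14 form narrow groups near or above 1000, IGLV2-23 spreads from 547 to 3015, and the other segments and classes lie far to the left.

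The B cell receptor and its co-receptors were well represented, with 13 of 15 listed genes measured and 8 of them among the first 1000. CD22, an inhibitory co-receptor, measured 529, 725 and 925 CPM (lowest, median and highest). CD79B measured 237, 580 and 717 CPM, with the value of 237 in scramble 3 and 460 or more in every other library, and its SD of log2 was 0.59 with all libraries and 0.27 without scramble 3. CD27, a receptor of the tumour necrosis factor family, ran from 29.6 CPM in scramble 3 to 203 in scramble 2, and its SD of log2 was 1.06 with all libraries and 0.46 without scramble 3.

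Of 26 listed genes of B cell receptor signalling, 25 were measured, with a median SD of log2 of 0.34 against 0.36 over all 10415 genes with a mean of 5 CPM or more. The sum of these genes ran from 3618 CPM in scramble 3 to 4050 in scramble 2, which does not show that the members were even. Of the 24 with a mean of 5 CPM or more, 11 were lowest and 3 highest in scramble 3. Over all genes 3508 and 2883 of 10415 were. PLCG2, the phospholipase behind the receptor, measured 433, 490 and 928 CPM (lowest, median and highest). Its highest value was in scramble 3, where it raised the sum. Among the kinases, BLK was steady at 175, 191 and 213 CPM, whereas LYN ran from 70.2 to 274, SYK from 166 to 432 and BTK from 51.7 to 199. LYN, SYK and BTK were each lowest in scramble 3 and BLK was too, but BLK varied by far less, with an SD of log2 of 0.10 against 0.76, 0.50 and 0.80. Without scramble 3 these SDs were 0.08 for BLK, 0.47 for LYN, 0.18 for SYK and 0.67 for BTK.

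Transcription factors of B cells were led by TCF3, the E protein E2A, at 1114, 1381 and 1834 CPM (lowest, median and highest). ETS1, an Ets factor of lymphocytes, measured 764 ± 200 CPM and POU2AF1, the octamer coactivator OCA-B, 741 ± 112 (SD, n = 6). PAX5, which maintains B cell identity, measured 133, 256 and 343 CPM, and EBF1, which acts with it, 23.1, 26.4 and 43.3 CPM (lowest, median and highest). ID3, an inhibitor of E proteins that is often mutated in Burkitt lymphoma, ran from 71.9 CPM in scramble 3 to 396 in scramble 5. In this list 15 of 21 genes had their lowest value in scramble 3, against 3508 of 10415 over all genes (33.7%).

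Germinal centre genes were present at high levels, with 24 of 29 measured and 11 among the first 1000. BCL6, the repressor that defines the germinal centre programme, measured 531, 720 and 1038 CPM (lowest, median and highest). MEF2B, a factor that activates it, measured 610 ± 203 CPM and MME, the surface peptidase CD10, 521 ± 97.8 (SD, n = 6). CXCR4, the chemokine receptor of the dark zone, measured 575, 982 and 2184 CPM (lowest, median and highest), highest in scramble 3. CXCR5, the receptor for follicle homing, was low in most libraries, at 2.99 to 14.5 CPM, and measured 59.9 in scramble 4. Its mean was 17.4 CPM with scramble 4 and 8.85 without it.

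Genes of plasma cells were uneven. XBP1, a factor of the secretory programme, measured 422, 566 and 949 CPM, and IRF4 233, 332 and 419 CPM (lowest, median and highest). PRDM1, the repressor Blimp-1 that sets the plasma cell state, was near the bottom of the table at 2 ± 1.15 CPM (SD, n = 6) and rank 11773. BACH2, which represses PRDM1, measured 305, 540 and 612 CPM (lowest, median and highest).

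Genes of other cell types were mostly not analysed here. None of the 13 myeloid, 8 natural killer, 9 erythroid and platelet and 7 epithelial markers was measured, and of 10 markers of stroma and endothelium 1 was, PECAM1, at 1.59 ± 0.581 CPM (SD, n = 6). Of 15 T cell markers, 7 were measured, and their sum ran from 80.8 to 319 CPM. LCK, a Src family kinase of lymphocytes, measured 43.6, 90.5 and 171 CPM, TRBC2 8.69, 70.5 and 83.8 CPM and TRAC 8.83, 21.9 and 52.1 CPM (lowest, median and highest). TRBC2, TRAC and the sum were lowest in scramble 3, and the highest value of TRBC2 was 9.64 times the lowest with that library and 1.96 times without it. The remaining T cell markers measured, TRBC1, ZAP70, IL7R and CD28, had means of 2.07 to 4.02 CPM, and the CD3 chains were not analysed here. ZAP70 was highest in scramble 1, and its mean was 3.2 CPM with that library and 1.73 without it. Every gene in the table passed 1 CPM in at least 1 of the 12 libraries, with a lowest maximum of 1.15. The rule by which genes were kept was not worked out.

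Within its own network MYC measured 436 CPM per kilobase, against 66.4 for MAX and 7.51 for MGA. These levels depend on the length used, and over the union of exons that of MYC was 199. MAX, the partner of MYC for DNA binding, measured 103 ± 16.1 CPM and MGA, a factor that competes for MAX, 90.4 ± 43.1 (SD, n = 6). CCND3, the cyclin D of germinal centre B cells, measured 68.8, 157 and 207 CPM (lowest, median and highest). CDKN2A, the locus of p16 and ARF, measured 69.7 ± 6.63 CPM (SD, n = 6). MCL1, a survival protein of the BCL2 family, measured 342, 464 and 839 CPM (lowest, median and highest). BCL2L1, another survival protein, measured 151 ± 21.1 CPM and the death-promoting BCL2L11 47.6 ± 15.4 (SD, n = 6). Per kilobase the means were 137 for MCL1, 57.8 for BCL2L1 and 31.2 for BCL2L11.

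Over 10415 genes with a mean of 5 CPM or more, the median SD of log2 was 0.36, with quartiles of 0.23 and 0.56, whereas counting alone would give 0.046. The SD exceeded 1 for 484 genes (4.65%) and was under 0.1 for 253 (2.43%). Without scramble 3 the median was 0.31 over the same genes. It was 0.38 within batch 1, 0.36 within batch 2 and 0.31 within XENO 1, so libraries that share a label were about as far apart as all 6.

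Much of this spread ran along a single direction. The first principal component of the deviations took 76.3% of their variance, the second 12.5%. On it, scramble 5, 1 and 2 had scores of 0.49, 0.36 and 0.33 and scramble 4, 6 and 3 scores of -0.28, -0.28 and -0.61 (root mean square log2 deviation). The order followed neither the batch nor the XENO number. Scramble 1, 2 and 5 were also the libraries with the most reads, 27644762 to 37876636. Scramble 3, 4 and 6 held 15404730 to 22138917 reads. Between single libraries, 0.682% of genes differed by over 2-fold for scramble 1 and 5, and 32.8% for scramble 3 and 5. Across genes, the deviations of scramble 1, 2 and 5 correlated with transcript length by -0.09, -0.22 and -0.18. Those of scramble 3, 4 and 6 did so by 0.14, 0.23 and 0.07. With GC content the correlations were 0.11, 0.13 and 0.16 in scramble 1, 2 and 5. In scramble 3, 4 and 6 they were -0.01, -0.28 and -0.15. Genes are not independent replicates. The part of depth, RNA quality, culture or library preparation in this component was not tested.

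The gene lists differed in how far their members moved together. Of 27 DNA replication genes, 26 had an SD above the median of all genes, as had 23 of 25 mitosis genes, 19 of 19 glycolysis genes, 23 of 25 MYC targets and 18 of 19 genes of actin, tubulin and thymosin. Over all genes 5207 of 10415 did so. Of the 79 ribosomal protein genes 16 did. The median SD of log2 was 0.77 for DNA replication, 0.83 for actin, tubulin and thymosin, 0.67 for glycolysis and 0.81 for MYC targets, against 0.21 for ribosomal proteins and 0.36 over all genes.

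**Figure D3:**
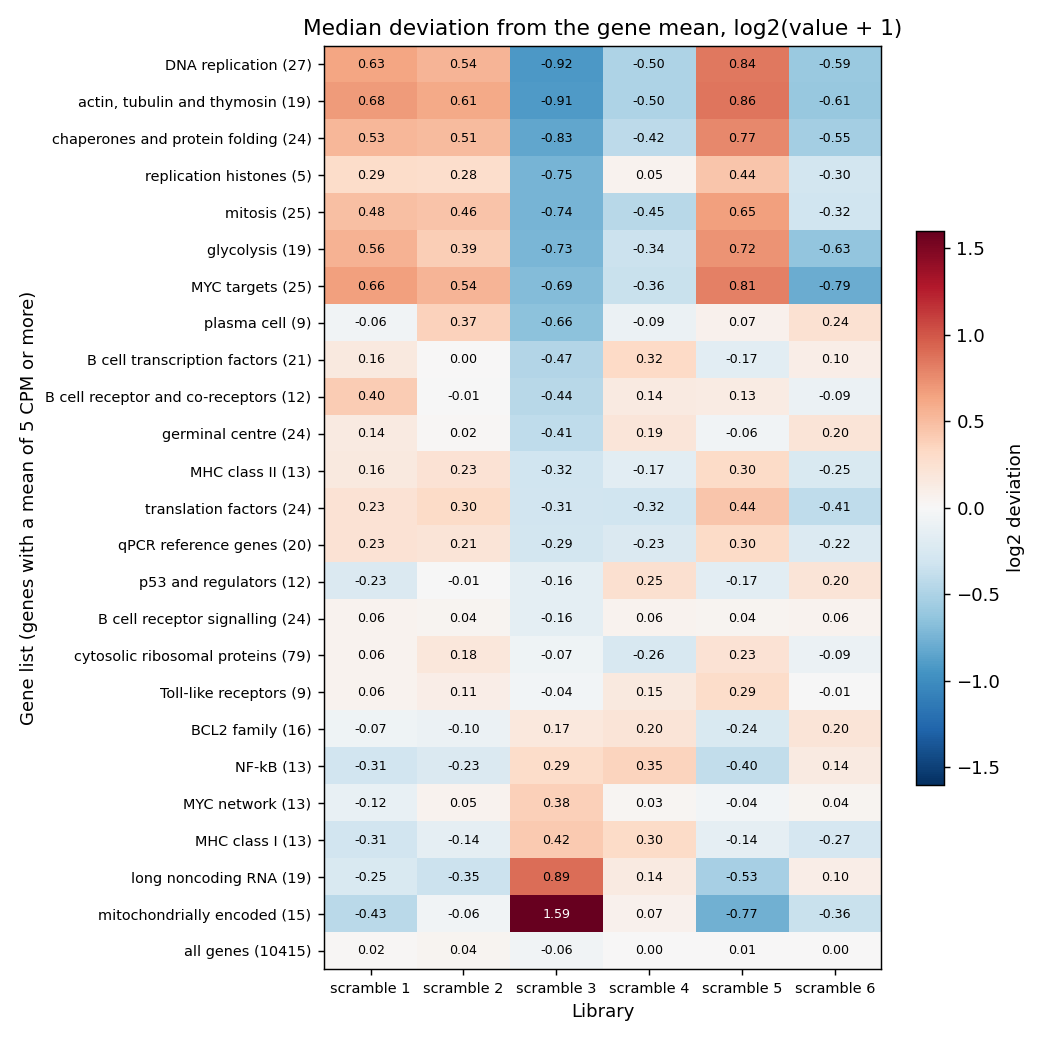
Median over the genes of each list of the deviation of a library from the gene's mean, on the log2(value + 1) scale, for lists with at least 5 genes of a mean of 5 CPM or more (number in parentheses). Replication, cytoskeleton, chaperone, mitosis, glycolysis and MYC target lists are above their mean in scramble 1, 2 and 5 and below it in scramble 3, 4 and 6, and mitochondrially encoded genes stand 1.59 above theirs in scramble 3.

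MCM7, a subunit of the replicative helicase, measured 270, 562 and 1060 CPM (lowest, median and highest), and MCM4, another subunit, 79.3, 253 and 596 CPM. PCNA, the sliding clamp, measured 175, 358 and 622 CPM. Among mitosis genes CCNB1, cyclin B1, measured 30.8, 120 and 245 CPM. CDC20, an activator of the anaphase-promoting complex, measured 23.1, 125 and 217 CPM, and TOP2A, topoisomerase II alpha, 255, 495 and 712 CPM (lowest, median and highest). For each of these replication and mitosis genes scramble 5 was highest, followed by scramble 1 and 2. The component above was drawn from the same values, and MCM4, CCNB1 and CDC20 were named after their values were seen. The order is therefore not separate support for the component, and its share over all genes was not counted. Of the mitosis genes 22 of 25 were lowest in scramble 3, against 3508 of 10415 over all genes (33.7%).

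GAPDH, a glycolytic enzyme often used as a loading reference, measured 711, 2450 and 5004 CPM (lowest, median and highest). LDHA, lactate dehydrogenase, measured 250, 944 and 2175 CPM and PKM, pyruvate kinase, 353, 1081 and 2083 CPM. Among MYC targets, the nucleolar proteins NPM1 and NCL measured 756, 1739 and 2855 CPM and 568, 1475 and 2559 CPM. GAPDH, LDHA and PKM were lowest in scramble 3 and NPM1 and NCL in scramble 6, and all 5 were highest in scramble 5. MYC itself varied less, with an SD of log2 of 0.35 against 0.85 for NPM1, 0.97 for NCL and 1.32 for LDHA. Without scramble 3 the SD of MYC was 0.22 and that of LDHA 1.17.

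Chaperones held the gene with the highest spread of all genes with a mean of 50 CPM or more. HSPA8 (ENSG00000109971, chromosome 11, 123057489 to 123063230, minus strand), the constitutive HSP70 that folds new proteins, measured 54.7, 567 and 1499 CPM (lowest, median and highest), an SD of log2 of 2.23. It measured 54.7, 75.8 and 94 CPM in scramble 3, 6 and 4 and 1039, 1138 and 1499 in scramble 2, 1 and 5, with no value in between. Without scramble 3 its SD was 2.11. HSP90AB1 and HSP90AA1, the cytosolic HSP90 proteins, measured 520, 1689 and 3344 CPM and 374, 998 and 1858 CPM. HSPA9, the mitochondrial HSP70, was among the steadiest genes, at 695, 725 and 741 CPM (lowest, median and highest) and an SD of log2 of 0.04.

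The heat shock factor HSF1 binds inverted repeats of GAA, and several chaperone promoters are known to hold them. The motif GAANNTTCNNGAA or, for the other strand, TTCNNGAANNTTC was searched in the window from 250 bases before to 50 after the annotated start. It was found in 5 of 24 chaperone genes (20.8%), in 0.457% of the measured genes and in 0.608% of all genes of the table. The windows of 4 of them are shown because they belong to the most and the least variable chaperones of this group, with the match and its directly adjoining repeats in capitals, 5′ to 3′ on the gene's strand (RefSeq, GRCh38.p14).
HSPA8, first base 230 before the start: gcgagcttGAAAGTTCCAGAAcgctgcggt
HSPA8, first base 55 before the start: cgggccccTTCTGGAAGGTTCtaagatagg
HSP90AA1, first base 88 before the start: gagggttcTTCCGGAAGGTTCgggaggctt
HSP90AB1, first base 165 before the start: ggagcaggTTCTGGAAGATTCatgggctcc
HSP90AB1, first base 112 before the start: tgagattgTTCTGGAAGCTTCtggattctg
HSPD1, first base 245 before the start: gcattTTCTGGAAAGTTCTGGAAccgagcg
They lie at chr11:123062345-123062374 and chr11:123062170-123062199 (HSPA8, minus), chr14:102087111-102087140 (HSP90AA1, minus), chr6:44247770-44247799 and chr6:44247823-44247852 (HSP90AB1, plus) and chr2:197500061-197500090 (HSPD1, minus).

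The 5 genes with the motif had SDs of log2 of 0.32 (HSPD1, the mitochondrial chaperonin HSP60), 0.87 (DNAJA1, an HSP40 cochaperone), 1.11 (HSP90AA1), 1.18 (HSP90AB1) and 2.23 (HSPA8). Their median was 1.11, against 0.62 over the 19 chaperone genes without it, which ran from 0.04 to 1.16. The ranges overlapped. Over all 38 measured genes with the motif and a mean of 5 CPM or more the median SD was 0.50, against 0.36 over all genes, and the match is a description of letters in these windows.

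PIEZO2, CNR1 and ERN1 were picked for their spread and PPP1R15A after its values were seen, so they stand here as single genes. PIEZO2, a mechanosensitive ion channel, measured 4.8, 39.6 and 120 CPM (lowest, median and highest), CNR1, a cannabinoid receptor, 43.7, 178 and 527 CPM, and ERN1, the stress sensor IRE1 of the endoplasmic reticulum, 24.3, 109 and 299 CPM. PPP1R15A, the stress-induced phosphatase subunit GADD34, measured 29.6, 85.2 and 325 CPM. All 4 were lowest in scramble 5, with scramble 1 and 2 next. Among noncoding RNAs, SNHG1 measured 235, 352 and 771 CPM and GAS5 253, 346 and 680 CPM, and 15 of 19 in this list were highest in scramble 3, against 2883 of 10415 over all genes (27.7%). SNHG5 ran the other way, at 210, 321 and 439 CPM, lowest in scramble 3 and highest in scramble 5. MALAT1, a nuclear long noncoding RNA, measured 196 CPM in scramble 3 and 25.3 to 42 in the others, so its mean was 60.8 CPM with scramble 3 and 33.8 without it.

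The mitochondrially encoded genes were the group most set by a single library. All 15 were highest in scramble 3. MT-CO1 (chromosome M, 5904 to 7445, plus strand), a subunit of cytochrome c oxidase, measured 2610, 4136 and 17494 CPM (lowest, median and highest). Its mean was 6082 CPM with scramble 3 and 3800 without it, and the median SD of log2 of the 15 genes was 0.86 with it and 0.38 without it.

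Antigen presentation genes showed both directions. B2M, the light chain of MHC class I, measured 700, 966 and 1521 CPM (lowest, median and highest), highest in scramble 3. CD74, the invariant chain of MHC class II, measured 721, 1290 and 1699 CPM, lowest in scramble 3. HLA-DRA, a class II chain, measured 294 ± 73.5 CPM (SD, n = 6). How reads were split between similar genes of these families is uncertain.

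Genes in common use as references for quantitative PCR were not alike in their steadiness. The steadiest of 20 was TBP, the TATA-binding protein, with an SD of log2 of 0.11 (0.05 without scramble 4), followed by YWHAZ, a 14-3-3 protein, at 0.18 and RPLP0 at 0.20. TUBB, beta-tubulin, had 1.67, TFRC, the transferrin receptor, 1.56, GAPDH 1.21 and HPRT1, of purine salvage, 1.04. TBP measured 26.9, 32.4 and 33.3 CPM and TFRC 73.7, 246 and 869 CPM (lowest, median and highest). Of the 20 genes, 13 had an SD above the median of all genes.

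The steadiest genes of a mean of 50 CPM or more were MYO18A, an unconventional myosin, at 88.5, 91.5 and 93.9 CPM (lowest, median and highest) and an SD of log2 of 0.03, and, besides HSPA9, MAP4, a microtubule-associated protein, at 286, 291 and 316 CPM and 0.05. PAWR, MAPK6, USP16, MASTL, CDC73 and CRYBG1 also had 0.05, and WNK1, a kinase of ion transport, had 0.06. At the other end, behind HSPA8 and PIEZO2, stood LSP1, a leukocyte actin-binding protein, at 1.69, 52.2 and 129 CPM and an SD of 1.97. The value of 1.69 belonged to scramble 3, and without it the SD of LSP1 was 0.91. UCP2, a mitochondrial carrier, FABP5, a fatty acid-binding protein, and SLC29A1, a nucleoside transporter, had SDs of 1.66, 1.56 and 1.52, and each was lowest in scramble 3 and highest in scramble 5.

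**Figure D4:**
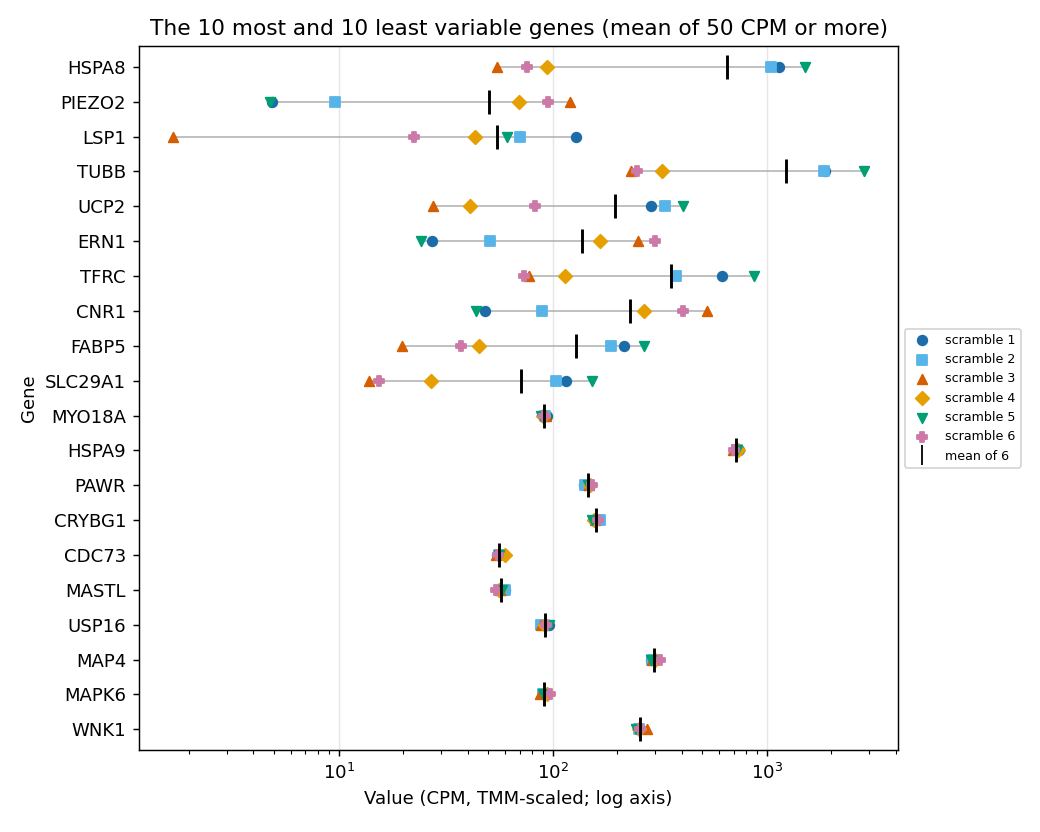
CPM (log axis) of the 10 genes with the highest and the 10 with the lowest SD of log2(value + 1) among genes with a mean of 50 CPM or more, with 1 symbol per scramble library and a black bar for the mean of the 6. In HSPA8 the values of scramble 3, 4 and 6 lie below 100 and the others above 1000, and the 10 lower genes are nearly single points.

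Batch 2 (scramble 4, 5 and 6) was compared with batch 1 (scramble 1, 2 and 3), which asks whether the batch of library preparation moved gene levels. Limma on log2(value + 1) called 0 of 12725 genes (0%) at a Benjamini-Hochberg adjusted p under 0.05. Before adjustment 15 genes had a p under 0.05, of 636.2 that chance would give, and edgeR's quasi-likelihood test and DESeq2, with 0 calls each, had 14 and 23. TXNIP and HSPA1B were picked from the smallest p-values in each direction, so they stand here as single genes. TXNIP, an inhibitor of thioredoxin, measured 71.4 and 83.3 CPM in scramble 4 and 6. In scramble 5, also of batch 2, it measured 31.3 CPM, near the 24.7 to 28.1 of batch 1. Its average was 26.9 CPM in batch 1 and 62.0 in batch 2. That was a log2 difference of 1.07 (SE 0.376, limma adjusted p = 1). HSPA1B, a stress-induced HSP70, measured 48.0 and 20.5 CPM, a log2 difference of -1.18 (SE 0.312, limma adjusted p = 1).

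With 1 library per XENO number and batch, scramble 1 and 2 against scramble 4 and 6, the same test called 3561 genes, 1630 of them higher and 1931 lower in batch 2. These are the libraries left when scramble 3 and 5 are taken out, and scramble 5 of batch 2 lay close to scramble 1 and 2 of batch 1 (correlations of 0.990 and 0.991). Scramble 1 and 2 scored 0.36 and 0.33 on the first component, and scramble 4 and 6 scored -0.28 each. Batch and that component cannot be told apart in these libraries. The fit with scramble 5 in place of scramble 4 was not run. With the XENO number as a term over 5 libraries, limma called 0 genes, with 104 at an unadjusted p under 0.05. A lack of calls over all 6 libraries does not show that batch had no effect.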

How the data were processed

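Polyadenylated RNA was sequenced from 6 scramble libraries, of a series of 12, after a TruSeq library preparation per the labels' protocols. Per the submitters' processing notes, RSEM 1.2.3 was used with GRCh38, and CASAVA 1.8.2 and cutadapt are also named. The table deposited by the authors holds 1 column of signal values per library, with none pooled, and its normalization is not given in the sources used here. Within each library 100% of the values were whole numbers of reads after division by a constant (tolerance 0.01 reads), so reads were recovered, and TMM factors recomputed from them over the 12 libraries matched those in the values. The values are therefore CPM scaled by TMM. Whether RSEM's estimates were rounded is not stated, nor a strand setting, so overlapping and antisense genes are uncertain.

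Symbols matched for 12528 of 12725 genes. Positions and lengths of 12595 came from GENCODE 29, with the longest principal transcript used per kilobase. Spread is the SD of log2(value + 1). Batches were compared with limma 3.58.1 (trend) in R 4.3.3, with edgeR 4.0.16 and DESeq2 1.42.0 on recovered reads as alternatives. The fit was also run on simulated counts with known changes. Their genes varied independently, unlike those of these libraries, so the simulation does not bear on the count of batch calls. Sequences were read with Python 3.11.15 and aligned with Biopython 1.88.

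The gene lists and the members were chosen with earlier results of these data known. Genes named were the markers, the 20 highest by mean and per kilobase, up to 4 highest of each list, every measured immunoglobulin and other-cell-type gene, the 10 most and least variable with a mean of 50 CPM or more, the PCR references and the 3 smallest batch p-values in each direction. Some genes that this rule names are not reported here. Besides these, PAX5, EBF1, PRDM1, BTK, SYK, LYN, BLK, CD27, ID3, CDKN2A, BACH2, MCM4, CDC20, CCNB1, MALAT1, CXCR5, PPP1R15A and BCL2L11 were named after their values were seen.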

Additional observations from a re-analysis of the deposited data

Results flagged for a closer look

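A library was taken to stand apart where its gap to the nearest other library relative to the range of the 6 exceeded Dixon's 95% critical value. This was so for 20 of 179 named genes (11.2%) and for 774 of 10415 genes with a mean of 5 CPM or more (7.43%). For normally distributed values chance flags about 1 in 20. These CPM values were not tested for that, genes moved together and some named genes were picked for their spread. The shares therefore do not measure an excess over chance. Scramble 3 was the library apart in 12 of the 20 and in 667 of the 774.

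Scramble 3 was highest for MT-CO1 (17494 CPM), MT-ND4 (10897), MT-CO2 (8322), MT-CO3 (5618) and MT-ND2 (4679), and for the share of mitochondrially encoded genes, 7.44% of values against 1.53 to 2.88% in the others. It was also highest for PLCG2 (928 CPM against 433 to 574), MALAT1 (196 against 25.3 to 42), MAX (133 against 91.5 to 106) and WNK1 (275 against 245 to 255). It was lowest for POU2AF1 (528 CPM against 717 to 824), BACH2 (305 against 526 to 612) and USP7, a deubiquitinase that acts on MDM2 (247 against 327 to 336).

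Scramble 6 was highest for XBP1 (949 CPM against 422 to 617), for CREB3L2, a factor of the secretory pathway (278 against 94.2 to 157), and for the readthrough gene PEDS1-UBE2V1 (8.55 against 0.0313 to 2.66), whose reads cannot be told from those of its parts. Scramble 4 was highest for CXCR5 (59.9 CPM against 2.99 to 14.5), IRAK4, a kinase of Toll-like receptor signalling (65.9 against 47.4 to 53.5), CDC73 (60.0 against 54.2 to 56.3) and IGHG1 (6.88 against 0.554 to 2.59). Scramble 1 was highest for ZAP70, a kinase of the T cell receptor (10.6 CPM against 0.12 to 4.02).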

How the results depend on the processing

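Leaving out each library in turn kept 93 to 98 of the 100 highest genes. The mean was 8623 to 9860 CPM for EEF1A1, 6553 to 6908 for IGHM, 571 to 637 for MYC and 579 to 601 for CD79A. The share of values was 16.6 to 17.5% for the top 100 genes, 7.61 to 7.99% for ribosomal proteins, 2.17 to 3.35% for mitochondrial and 1.67 to 1.86% for immunoglobulin genes. The median SD of log2 was 0.30 to 0.38 and the genes with an SD above 1 were 265 to 591, lowest in both cases without scramble 3. The cause of that change was not tested. With a mean of 50 CPM as the minimum, 161 of 4857 genes (3.31%) had an SD above 1. With a minimum of 5 CPM it was 484 of 10415 (4.65%). Without mitochondrial genes the top 100 took 14.7%, by removal of 10 of them. Over the union of exons MYC had 199 and CD79A 391 CPM per kilobase, by the longer length, and 66 of 179 named genes moved by over 1 SD. Scaling to the library total or by median of ratios moved no named mean by over 1 SD.

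For the batches, 0 genes were called in each leave-one-out fit, with 5 to 386 at an unadjusted p under 0.05, and with every other scaling, pseudocount, filter and tool. The fit with 1 library per XENO number and batch called 3561, by the choice of samples. No paired analysis was possible because only scramble libraries were used, 1 of each sample pair. Depth sets a floor of 0.083 to 0.181 CPM.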
